A study of Mus musculus with 2 samples.

Results

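Of the 834 cell barcodes in a single-cell RNA library of sorted mouse retinal cells, 73 (8.75%) carried at least 20 unique molecular identifiers (UMIs) of Malat1, a long noncoding RNA that stays in the nucleus. A UMI is a short random tag that marks 1 captured RNA molecule. They were selected on that Malat1 count and divided by the summed share of Sag, Pdc, Gngt1 and Gnat1, which encode proteins of the rod light response. In 29 of them these 4 genes made up at least 1% of UMIs, and they are called Malat1-rich rods here. The other 44 are called Malat1-rich non-rods. They were compared with the 550 rods that had 0 Malat1 UMIs, the zero-Malat1 rods, and 103 rods with 1 to 19 Malat1 UMIs were set beside them.

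The study asked what happens to gene expression in rod photoreceptors when chromatin is tethered to the nuclear envelope. Retinas of newborn mice (CD1 and C57BL/6J are the wild-type strains in the methods, of both sexes) were electroporated in vivo with 1 of 3 plasmids, namely pCIG2 with its green fluorescent reporter alone (Control), pCIG2 that also carried lamin A (Lmna) or pCIG2 that also carried the lamin B receptor (Lbr). After 8 weeks, reporter-positive cells that excluded the viability dye Dapi were sorted. All 3 groups carry the vector and its reporter, which does not restrict the sort to rods. The groups were marked with lipid-anchored oligonucleotides, pooled and run together, so the library is 1 sample without replicates, and neither the number of animals behind a tag nor the condition that each tag marks is given in the labels used here. Tags are therefore named by number, no test was made, and every interval is a 95% interval that covers counting error only.

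Malat1 is made in nearly all mammalian cells, is kept in nuclear speckles near sites of splicing, and is often used to judge how much nuclear RNA a barcode holds. The RNA is not polyadenylated in the usual way. Its precursor is cut by RNase P, which releases a small tRNA-like RNA called mascRNA and leaves a new end behind a stretch encoded as A in the genome, folded into a triple helix with U-rich motifs upstream. Methods that prime on poly(A), such as the one used here, are thought to reach Malat1 through such genomic A stretches. Other RNAs also stay in the nucleus, among them Kcnq1ot1, Xist and messenger RNAs that keep introns, whereas the transcripts of the mitochondrial genome never enter it.

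The gene lies at chr19:5795690-5802672 on the minus strand (mm10, identical to GRCm38) and is annotated as a lincRNA, ENSMUSG00000092341, with a transcript of 6983 bases in GENCODE release 21 for mouse. The part of that transcript around its genomic A stretch is shown because it is the only run of 8 or more A in the transcript. It covers chr19:5795919-5796069 and is written 5′ to 3′ on the minus strand, with the run of 12 A in capitals. The run ends 298 bases before the annotated end of the transcript.

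Malat1, A stretch: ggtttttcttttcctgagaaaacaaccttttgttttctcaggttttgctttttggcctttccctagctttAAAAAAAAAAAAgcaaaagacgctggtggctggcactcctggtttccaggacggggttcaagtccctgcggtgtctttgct

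The oligonucleotides that marked the 3 groups also end in A, so that they are captured together with the RNA. They are shown because the members differ in tag. The index of 8 bases that names the tag, at positions 22 to 29 from the 5′ end, is in capitals.

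Tag 1: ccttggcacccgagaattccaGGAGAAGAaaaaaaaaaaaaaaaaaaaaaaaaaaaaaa

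Tag 2: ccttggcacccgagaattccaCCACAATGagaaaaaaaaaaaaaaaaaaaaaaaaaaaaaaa

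Tag 3: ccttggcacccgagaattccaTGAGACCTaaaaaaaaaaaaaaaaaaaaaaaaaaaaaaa

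Malat1 was almost wholly confined to the members, which the rule brings about in part. They held 98.2% of all Malat1 UMIs and 27.6% of all UMIs in the matrix. Malat1-rich rods had 12802 Malat1 UMIs in all, with 20 in the lowest barcode, a median of 184 and 3822 in the highest. In Malat1-rich non-rods the total was 13022, with 21 in the lowest barcode, a median of 295 and 729 in the highest. Malat1 made up 3.89% of UMIs in the rods (0.62% to 16.1% per barcode, median 3.83%) and 3.63% in the non-rods (1.33% to 8.26%, median 3.87%). These values chose the members and are given as a description.

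The lowest members had 20, 21, 23, 23 and 27 Malat1 UMIs, and the highest barcodes outside had 17, 14, 14, 14 and 12. There were 13 barcodes with 10 to 19 Malat1 UMIs, 10 with 20 to 39 and 58 with 100 or more, so few barcodes lay near the limit. All 3 Malat1-rich rods of tag 2 did, with 20, 23 and 38 Malat1 UMIs, so values for tag 2 rest on rods near the limit. The rod rule also left a gap. The Malat1-rich rods with the fewest rod transcripts had 1.45% and 1.53% of UMIs in the 4 genes, and the non-rods with the most had 0.45% and 0.18%.

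Rods are the most numerous cells in the matrix, and most showed no Malat1. Of 682 rods, 550 had 0 Malat1 UMIs, which is how they were chosen. CPM, for which the share of all UMIs is scaled so that the 3.89% of Malat1-rich rods is 38890 CPM, is the unit of level throughout. The 103 rods in between had a median of 2 Malat1 UMIs and 1508 CPM.

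**Figure D1:**
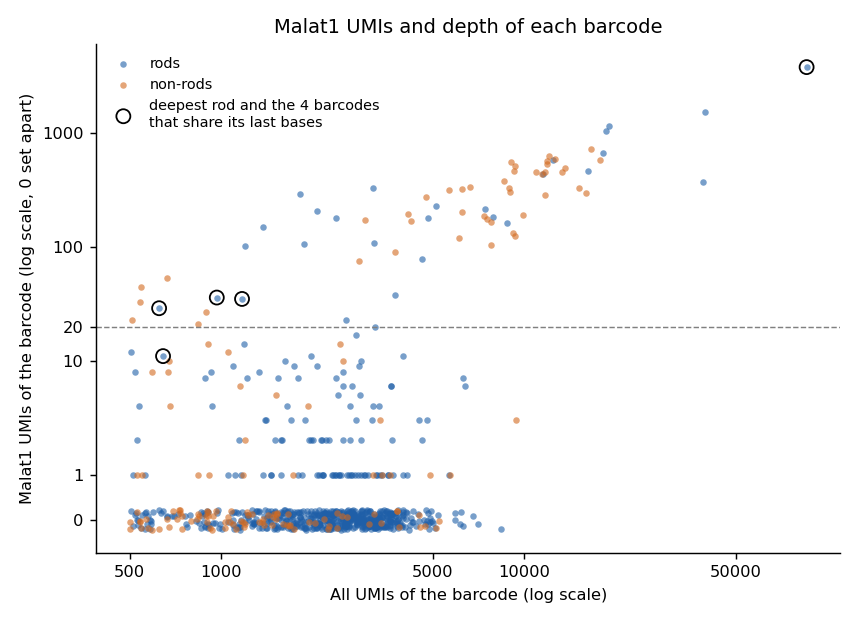
Malat1 UMIs against all UMIs for each of the 834 barcodes, on log axes with barcodes at 0 Malat1 UMIs drawn as a separate band. Blue points are rods, orange points are non-rods, the dashed line marks 20 Malat1 UMIs, and black circles mark the deepest rod and the 4 barcodes that share its last 9 bases. All 23 barcodes over 10000 UMIs lie above the line.

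The members were the deepest barcodes of the library. A rule on a count favours deep barcodes, so depth is given as a description. All 23 barcodes over 10000 UMIs were members, 9 of them rods and 14 non-rods, and so were the 20 deepest. Median UMIs per barcode were 4610 in Malat1-rich rods (lowest 625, highest 85822), 8784 in Malat1-rich non-rods (507 to 17791), 2342 in rods with 1 to 19 Malat1 UMIs and 2454 in zero-Malat1 rods (503 to 8395). Depth did not separate the rods fully. Of 26 rods over 5000 UMIs, 13 were Malat1-rich and 10 had 0 Malat1 UMIs.

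The deepest rod stood apart. It had 85822 UMIs, 7614 genes and 3822 Malat1 UMIs, which was 26.1% of all UMIs and 29.9% of the Malat1 UMIs of the 29 rods. There were 4 further barcodes that shared the last 9 of its 16 bases and differed from it at 2 or 3 of the first 7, while every other barcode differed from it at 6 bases or more. They had 625 to 1174 UMIs and the same tag, and 3 of them were members, with 35, 29 and 36 Malat1 UMIs. These 4 had 1.29 to 1.45 UMIs per detected gene, against a lowest value of 2.36 and a median of 5.03 among the rest of the matrix, and 99.8% or more of their UMIs fell in genes also seen in the deepest rod. In the 25 other Malat1-rich rods this share was 88.0% to 96.0%. Whether these barcodes are separate cells was not tested, so results for rods are also given without the deepest rod and the 3 members near it.

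A further 2 barcodes that the rule counts as rods had more cone than rod rule transcripts. Cone genes other than Guca1a, which rods also express, made up 6.79% and 6.02% of their UMIs, in a tag 1 and a tag 3 barcode, and the 4 rod rule genes 1.53% and 2.37%. They supplied most of the cone signal of the group. Opn1sw, the short-wavelength cone opsin, was found in 3 of the 29 barcodes, with 93.3% of its 194 UMIs in 1 of them. The list of 30 other rod genes was present in all 29 barcodes, at 78086 CPM in sum against 115678 CPM in zero-Malat1 rods.

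The tags of the members were uneven. Tag 1 marked 24 of the 29 Malat1-rich rods, tag 2 marked 3 and tag 3 marked 2. That was 9.45% of the 254 tag 1 rods (interval 6.15% to 13.7%), 1.07% of the 280 tag 2 rods (0.222% to 3.1%) and 5.56% of the 36 tag 3 rods (0.68% to 18.7%). The tag 1 interval lay above that of tag 2, and without the deepest rod and the 4 barcodes near it tag 1 had 20 of 249 (8.03%, 4.98% to 12.1%). Rods with 1 to 19 Malat1 UMIs were distributed the other way, with 11 of 254 in tag 1 (4.33%, 2.18% to 7.62%), 69 of 280 in tag 2 (24.6%, 19.7% to 30.1%) and 2 of 36 in tag 3. Among the 44 non-rods, tag 2 marked 31, tag 3 marked 3 and tag 1 marked 2. That was 9.81% of the 316 tag 2 barcodes (6.76% to 13.6%) and 7.32% of the 41 tag 3 barcodes (1.54% to 19.9%). In tag 1 it was 0.758% of 264 barcodes (0.0919% to 2.71%). A further 7 non-rods were absent from the tag matrix and 1 was a tag doublet. Each tag is 1 pool of cells, so a difference between tags cannot be told apart from one between pools.

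Quality limits of the study treat members in different ways. The stated limits of 200 to 2500 genes and at most 18% mitochondrial UMIs kept 21 of the 29 rods and 19 of the 44 non-rods. All 8 barcodes of the matrix with more than 2500 genes were members, 7 rods and 1 non-rod. The mitochondrial limit removed 1 of the Malat1-rich rods but 21 of the non-rods. The doublet caller Scrublet marked 2 barcodes of the 834, both of them members, 1 in each kind.

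Mitochondrial transcripts were less abundant in Malat1-rich rods than in zero-Malat1 rods. The 13 protein-coding genes of the mitochondrial genome, which encode subunits of the respiratory chain and of ATP synthase, held 7.74% of UMIs in Malat1-rich rods (7.65% to 7.83%) and 16.3% in zero-Malat1 rods (16.3% to 16.4%), a log2 ratio of -1.08. Per barcode the share ran from 1.15% to 19.6% with a median of 7.17% in the former, and from 0% to 79.8% with a median of 15.8% in the latter. The ranges overlapped, but 2 of the 29 Malat1-rich rods lay above the zero-Malat1 median. Of the 550 zero-Malat1 rods, 75 were absent from the tag matrix, against 0 of the 29 Malat1-rich rods. The 16.3% includes these 75. Zero-Malat1 rods of tags 1, 2 and 3 reached at most 29.7%, 29.6% and 26.2%, so the highest shares came from outside these tags. Rods with 1 to 19 Malat1 UMIs were not intermediate, at 20.1% of UMIs with a median of 19.2%. Their tags differ from those of zero-Malat1 rods, and 18 of the 103 were absent from the tag matrix. In tag 2, with 69 of these rods, the share was 18.3% against 17.9% in zero-Malat1 rods. It was 15.6% against 12.9% in tag 1 (11 rods) and 23.8% against 13.8% in tag 3 (2 rods). Leaving Malat1 out of the total gave 8.05% in Malat1-rich rods.

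The difference was present within tag 1, which held most of these rods, and smaller there. The 24 Malat1-rich rods of tag 1 had 7.43% mitochondrial UMIs and its 219 zero-Malat1 rods had 12.9%, a log2 ratio of -0.79. In tag 3 the values were 9.67% (2 rods) and 13.8% (32 rods), and in tag 2 they were 16.4% (3 rods) and 17.9% (208 rods). Without the deepest rod and the 3 members near it the log2 ratio was -0.94, and among barcodes of 1000 to 10000 UMIs it was -0.92. Among barcodes within the limits on genes and mitochondrial share it was -0.51.

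**Figure D2:**
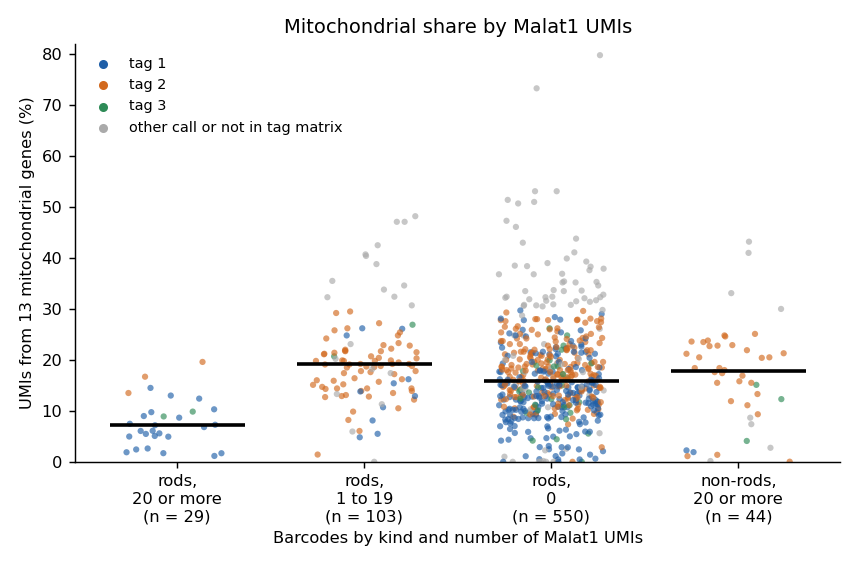
Mitochondrial share, in percent of the UMIs of a barcode, with 1 point per barcode coloured by tag and a black bar at the median. Malat1-rich rods have a median of 7.17%, against 19.2% in rods with 1 to 19 Malat1 UMIs, 15.8% in zero-Malat1 rods and 17.8% in Malat1-rich non-rods.

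All 13 mitochondrial genes were lower in Malat1-rich rods, 7 of them by 2-fold or more, where 11.5% of all genes tested were. mt-Co3 encodes a subunit of cytochrome c oxidase and had 15900 CPM against 37602 CPM (log2 ratio -1.24, -1.28 to -1.20). mt-Cytb, of complex III, had 11662 against 28380 CPM (log2 ratio -1.28). The smallest difference was that of mt-Co1, the catalytic subunit of cytochrome c oxidase, at 7831 against 10394 CPM (log2 ratio -0.41).

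Among Malat1-rich rods the Malat1 share and the mitochondrial share ran in opposite directions. Spearman's rank correlation was -0.606 over the 29 barcodes and -0.648 over the 25 without the deepest rod and the 3 members near it. Both shares have the UMIs of the barcode as denominator, and the barcodes share 1 library, so this is a description. The 6 rods with under 3% mitochondrial UMIs had 3.75% to 16.1% Malat1. A low mitochondrial share also occurred without Malat1, in 29 of the 550 zero-Malat1 rods.

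The number of genes seen at equal depth differed too. When each barcode was thinned at random to 1000 UMIs, Malat1-rich rods had a median of 529 genes (27 barcodes, lowest 321, highest 728) and zero-Malat1 rods had 368 (498 barcodes, 157 to 489). Left out as too shallow were 2 and 52 barcodes. Before thinning the medians were 1075 and 498 genes. Rods with 1 to 19 Malat1 UMIs had 351 genes after thinning and Malat1-rich non-rods 521. At 2000 UMIs the medians were 856 and 515 genes in Malat1-rich and zero-Malat1 rods. The 3 Malat1-rich rods of tag 2 lay 63 genes above the zero-Malat1 rods of that tag, against 170 in tag 1. The difference of 161 genes between all rods was 97 among barcodes of 1000 to 10000 UMIs and 117 within the stated quality limits.

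Across genes, 2203 had at least 20 expected UMIs in both groups of rods if their shares were equal. Of these, 442 (20.1% of genes tested) were 2-fold or more higher in Malat1-rich rods and 254 (11.5%) were 2-fold or more lower, with a median log2 ratio of -0.05. The expected UMIs come from both groups together, so a gene can pass the limit through its UMIs in 1 group alone. Counts of higher and lower genes and median ratios of tested genes, here and for the lists, are therefore a description. Of the higher genes, 398 were also 2-fold higher within tag 1, 372 without the deepest rod and the 3 members near it, and 344 when each barcode was weighted equally. For lower genes these numbers were 217, 164 and 192. With the limit on expected UMIs applied anew, the rods without those 4 barcodes gave 215 higher and 154 lower genes of 1623. Among barcodes of 1000 to 10000 UMIs 437 genes could be tested, of which 16 were higher and 69 lower, and when each gene was counted once per barcode 0 of 501 genes were higher and 342 lower. Counting once makes the total the number of genes detected, with medians of 1075 in Malat1-rich and 498 in zero-Malat1 rods. Widely seen genes then take a smaller share in the deeper group, so this alternative is tied to depth.

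Other nuclear long noncoding RNAs, summed as a list, were more abundant in Malat1-rich rods. The list had 27 names, Malat1 not among them, of which 18 were in the matrix. Their sum was 4396 CPM in Malat1-rich rods (4172 to 4628) and 758 CPM in zero-Malat1 rods (712 to 805), which is 5.80-fold or a log2 ratio of 2.54. Most of it came from the host genes of 1 microRNA, miR-124. Of 1447 UMIs in Malat1-rich rods, Mir124-2hg had 768 and Mir124a-1hg 403. Of 1036 UMIs in zero-Malat1 rods, Mir124-2hg had 802. A transcript of the list was seen in 27 of 29 Malat1-rich rods and 270 of 550 zero-Malat1 rods, and the sum in rods with 1 to 19 Malat1 UMIs was 711 CPM. Of the 5 that could be tested, 4 were 2-fold or more higher, where 20.1% of all genes were. Kcnq1ot1 (146 UMIs against 3), Mir124a-1hg (403 against 19) and Snhg20 (60 against 51) passed the limit through their UMIs in Malat1-rich rods. The count of 4 is thus a description. The log2 ratio of the sum was 2.45 in tag 1 and 2.21 without the deepest rod and the 3 members near it. It was -0.34 in tag 2, however, with its 3 rods, and 0.80 when each gene was counted once per barcode.

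Kcnq1ot1, an imprinted RNA that silences neighbouring genes on its own chromosome (chr7:143203458-143296549, minus strand, antisense), had 146 UMIs in 14 of 29 Malat1-rich rods. The 550 zero-Malat1 rods had 3 UMIs, all in 1 barcode, for a log2 ratio of 7.44 (6.08 to 9.95). It was in 25.9% of Malat1-rich rods and 0% of zero-Malat1 rods after thinning to 1000 UMIs. Kcnq1ot1 overlaps Kcnq1 on the other strand, and whether the counting used strand is not stated by the sources used.

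The host genes of the neuronal microRNA miR-124 followed. Mir124a-1hg (chr14:64587331-64593961, lincRNA) had 403 UMIs in 22 Malat1-rich rods and 19 in 7 zero-Malat1 rods, or 1224 against 13.9 CPM (log2 ratio 6.43, 5.80 to 7.21). Mir124-2hg (chr3:17789921-17808970, lincRNA) was more widely seen, in 25 of 29 and 233 of 550 rods, at 2333 against 587 CPM (log2 ratio 1.99, 1.85 to 2.14). Their products repress non-neuronal messenger RNAs. Snhg20, a host of small nucleolar RNA, had a log2 ratio of 2.29, and Snhg12, another such host, one of -0.25 (-0.88 to 0.31).

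Other members of the list were near the limit of detection in rods. Neat1, the RNA scaffold of nuclear paraspeckles, had 8 UMIs in 5 Malat1-rich rods and 0 in zero-Malat1 rods. Xist, which coats the inactive X chromosome, had 17 UMIs in 2 Malat1-rich rods and 1 in zero-Malat1 rods. Meg3, an imprinted RNA of many neurons, had 0 UMIs in both groups of rods.

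Messenger RNAs known to keep introns or to be held partly in the nucleus were higher as well. This list of 22 genes consists mostly of regulators of splicing. It summed to 10444 CPM in Malat1-rich rods (10098 to 10799) and 3086 CPM in zero-Malat1 rods (2994 to 3181), a log2 ratio of 1.76. Of 19 genes tested, 16 were 2-fold or more higher and 0 lower, where 20.1% and 11.5% of all genes were. Some of the 19, such as Pnisr (137 UMIs against 46), passed the limit through their UMIs in Malat1-rich rods. These counts and the median of the 19 are therefore a description. That median log2 ratio was 2.34, where all genes tested had -0.05. The log2 ratio of the sum was 1.70 in tag 1, 0.89 in tag 2, 1.61 without the deepest rod and the 3 members near it, 1.41 among barcodes of 1000 to 10000 UMIs, and 0.51 with each gene counted once per barcode.

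Rbm25, a splicing factor of nuclear speckles, had the highest ratio among the 19 tested, with 221 UMIs in 21 of 29 Malat1-rich rods and 63 UMIs in 26 of 550 zero-Malat1 rods (log2 ratio 3.86, 3.46 to 4.29). Pnisr, a protein rich in serine and arginine, had 416 against 33.6 CPM (log2 ratio 3.62). Mat2a, which makes S-adenosylmethionine, had 199 UMIs in 12 barcodes against 82 in 26 (log2 ratio 3.33). The kinase Clk1, which phosphorylates splicing factors, had a log2 ratio of 3.01, and Son, a core protein of speckles, one of 1.58. The smallest was that of Srrm2, another speckle protein, at 444 against 249 CPM (log2 ratio 0.83, 0.54 to 1.11). Whether the counted molecules hold introns cannot be read from counts per gene.

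**Figure D3:**
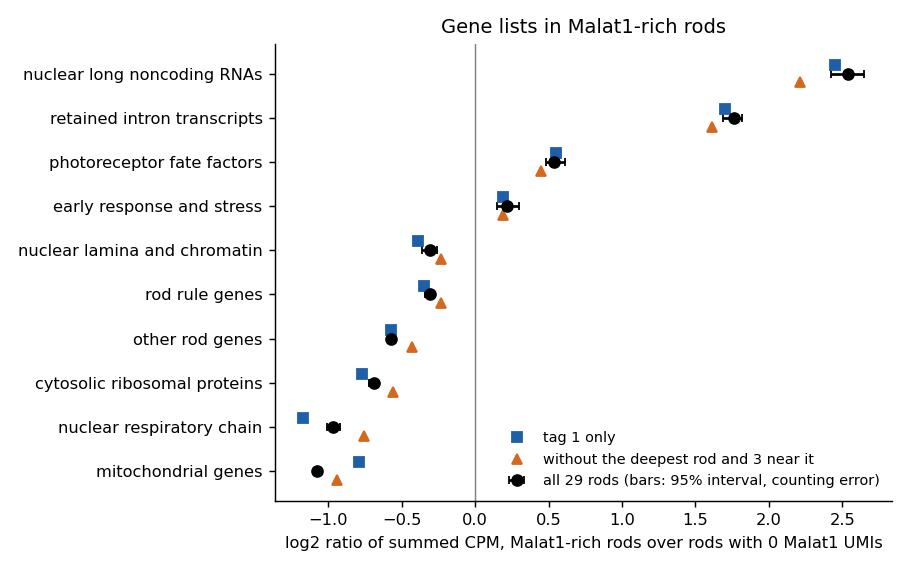
Log2 ratio of the summed CPM of 10 gene lists in Malat1-rich rods over zero-Malat1 rods. Black circles are all 29 rods with 95% intervals for counting error, blue squares tag 1 only, and orange triangles the rods without the deepest and the 3 members near it. Nuclear long noncoding RNAs are at 2.54 and mitochondrial genes at -1.08.

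Beyond the lists, the genes with the highest log2 ratios came from varied pathways. Peg3, an imprinted zinc finger gene, had 361 against 9.51 CPM (log2 ratio 5.20, 4.42 to 6.20). Abhd14b, a hydrolase, had 492 against 14.6 CPM. Rpgrip1, which anchors the ciliary protein RPGR at the connecting cilium of photoreceptors and is mutated in inherited blindness, was the most abundant of them. It had 940 UMIs in 25 of 29 Malat1-rich rods and 173 in 61 of 550 zero-Malat1 rods (2856 against 127 CPM, log2 ratio 4.49, 4.26 to 4.74). After thinning it was seen in 77.8% and 7.03% of these rods.

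Snrnp70, the 70K protein of the U1 splicing particle, had a log2 ratio of 4.41 and Zcchc7, of a nuclear RNA decay complex, one of 4.15. Fyco1, an adaptor for vesicle transport, was at 4.35, and 3222401L13Rik and BC005561 were at 3.84 and 3.80. Each of these genes was seen in at least 8 Malat1-rich rods, with at most 47.9% of its UMIs in 1 barcode. A further 44 genes that were 2-fold or more higher failed the rule on the spread over barcodes and are given by count alone.

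Glul, glutamine synthetase, is a marker of Müller glia and was also among the highest (134 UMIs in 14 Malat1-rich rods, 28 in 16 zero-Malat1 rods, log2 ratio 4.29). The list of 17 Müller glia genes summed to 1498 CPM in Malat1-rich rods and 704 CPM in zero-Malat1 rods, with at least 1 UMI in 23 of 29 and 231 of 550 barcodes. Rlbp1 and Apoe had 52 and 76 UMIs in Malat1-rich rods and 15 and 16 in zero-Malat1 rods. Clu, clusterin, which was the most abundant gene of the list, went the other way, at 425 against 637 CPM (log2 ratio -0.58, -0.85 to -0.32). The bipolar list summed to 896 against 212 CPM, was seen in 19 of the 29 rods and never exceeded 0.333% of the UMIs of a rod. The microglia list had 6 UMIs, in 1 Malat1-rich rod, with 11 of its 13 genes at 0 in both groups. The part of other cells in the results for rods was not tested.

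Among photoreceptor transcription factors and regulators, 8 of the 13 tested were 2-fold or more higher and 0 lower, where 20.1% and 11.5% of all genes were. Their median log2 ratio was 1.39. The sum of the list differed less (8551 against 5867 CPM, log2 ratio 0.54), and the abundant members Nrl and Nr2e3 were not among the higher ones. Esrrb, a nuclear receptor needed for rod survival, had a log2 ratio of 2.17 and Casz1, a zinc finger factor of retinal cell fate, one of 1.95. Otx2, needed for photoreceptor fate, was at 1.55 and Neurod1, needed for photoreceptor survival, at 1.39. The rod determinant Nrl was lower (1091 against 1847 CPM, log2 ratio -0.76), and its target Nr2e3 was at 0.01 (-0.13 to 0.15).

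Rod transcripts outside the rule differed in both directions. Of 29 tested, 5 were 2-fold or more higher and 3 lower, shares close to the 20.1% and 11.5% of all genes. Samd7, Samd11 and Esrrb, among the higher ones here, are also among the higher ones of the list of transcription factors and regulators. Rcvrn, the calcium sensor recoverin, had 5100 against 10306 CPM (log2 ratio -1.01, -1.09 to -0.94). The rule genes Sag and Gngt1 were at 0.10 and -0.94, although the rule used their sum.

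Rp1 encodes a microtubule protein of the outer segment axoneme and spans 410 kb. It had 2077 UMIs in all 29 Malat1-rich rods and 2325 in 385 of 550 zero-Malat1 rods (6309 against 1700 CPM, log2 ratio 1.89, 1.81 to 1.98). The phosphodiesterase subunits Pde6a and Pde6b were higher, at 0.44 and 0.64, while the small subunit Pde6g was at -0.91.

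Among the genes tested, the span of a gene went with its ratio. Of 221 tested genes over 100 kb, 125 (56.6%) were 2-fold or more higher in Malat1-rich rods and 6 (2.71%) lower, with a median log2 ratio of 1.24. Of 411 genes of up to 5 kb, 16 (3.89%) were higher and 80 (19.5%) lower, with a median of -0.56. The bins in between lay in order, with medians of -0.38 for 5 to 10 kb, -0.07 for 10 to 20 kb, 0.20 for 20 to 50 kb and 0.72 for 50 to 100 kb. Genes differ in level and detection between the bins, and genes are not replicates. A gene can also pass the limit on expected UMIs through its UMIs in 1 group alone. The counts and medians of the bins are therefore a description.

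Leaving out mitochondrial genes and Malat1, genes of 100 kb or more held 12.1% of UMIs in Malat1-rich rods (12% to 12.2%) and 5.15% in zero-Malat1 rods (5.11% to 5.19%). Per barcode the medians were 11.4% and 5.06%, with ranges of 5.36% to 19.3% and 0.798% to 14.7%. Every Malat1-rich rod lay above the zero-Malat1 median. Malat1-rich non-rods had 11.9% and rods with 1 to 19 Malat1 UMIs had 6.27%. The log2 ratio of the rod shares was 1.34 in tag 1, 0.42 in tag 2, 1.06 without the deepest rod and the 3 members near it, and 0.75 with each gene counted once per barcode.

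**Figure D4:**
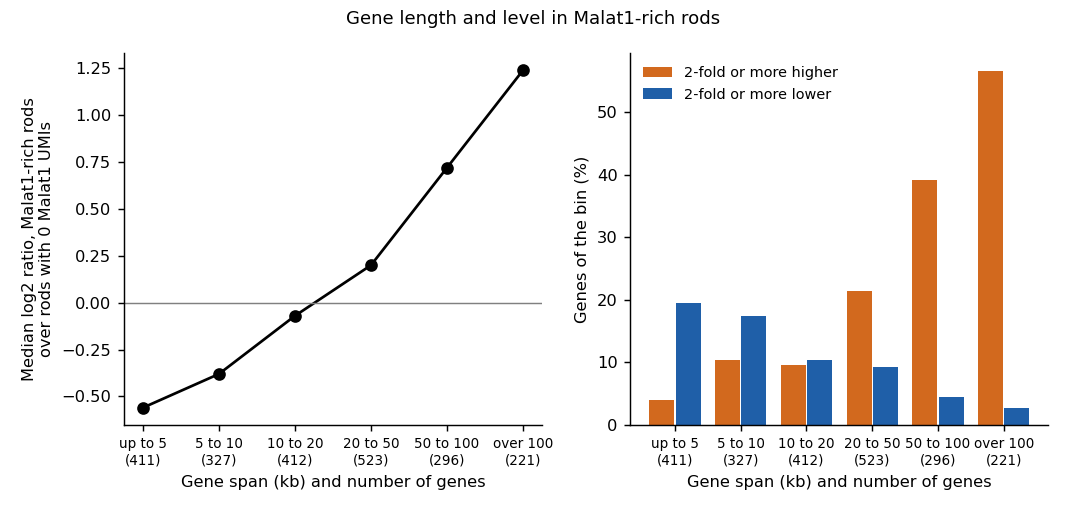
Gene span and the difference between Malat1-rich and zero-Malat1 rods, over the genes tested, with the number of genes in brackets under each bin. The left panel gives the median log2 ratio, from -0.56 up to 5 kb to 1.24 over 100 kb, and the right panel the percentage of genes 2-fold or more higher (orange) or lower (blue).

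Short and abundant housekeeping transcripts lay on the other side. The 86 cytosolic ribosomal protein genes summed to 61961 CPM in Malat1-rich rods and 100280 CPM in zero-Malat1 rods (log2 ratio -0.69). Of 79 tested, 0 were 2-fold or more higher and 6 lower, where 11.5% of all genes were lower. Rpl22 was at -1.28, and Rps27l, at 0.12 (-0.51 to 0.67), was the sole gene above 0. Their sum in rods with 1 to 19 Malat1 UMIs was 73959 CPM.

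Nuclear genes of the respiratory chain were lower together with the mitochondrial genome. Of 34 tested, 13 were 2-fold or more lower and 0 higher, where 11.5% and 20.1% of all genes were, with a sum of 14271 against 27924 CPM (log2 ratio -0.97). Ndufa4, a cytochrome c oxidase subunit, had 1926 against 4830 CPM (log2 ratio -1.33), and Cox6c, of the same complex, was at -1.41. Ndufs1, the largest subunit of complex I, was at 0.81 (0.14 to 1.42).

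The lowest ratios of all were those of haemoglobin. Hbb-bs had 1 UMI in Malat1-rich rods and 1066 UMIs in 159 of 550 zero-Malat1 rods, a log2 ratio of -7.42 (-13.3 to -5.52), and the near-identical Hbb-bt had 1 and 153 UMIs, so how reads were split between them is uncertain. The 219 zero-Malat1 rods of tag 1 held 961 of the 1066 and 140 of the 153 UMIs. Within tag 1 the log2 ratio of Hbb-bs was -8.35. Circulating mouse red blood cells have no nucleus, but these 159 barcodes pass the rod rule, and the source of their haemoglobin UMIs was not tested. Among 16 barcodes with at least 1% of UMIs from red blood cell genes, 0 were members (interval 0% to 20.6%). That interval includes the 8.75% of all barcodes that were members. All 16 had 0 Malat1 UMIs, as did 550 of the 682 rods.

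After haemoglobin came genes with few UMIs in Malat1-rich rods. Tnnt1, a troponin of slow muscle, Dnajb11, a chaperone of the endoplasmic reticulum, and Cerk, ceramide kinase, had 3 UMIs each, against 132, 124 and 112. Their log2 ratios were -3.19 (-5.70 to -1.83), -3.10 (-5.61 to -1.73) and -2.95 (-5.47 to -1.58). Ergic3 and Ppib, which act in the early secretory pathway, had log2 ratios of -2.73 and -2.32. Ndfip1, an adaptor of ubiquitin ligases, was at -2.50, Dnajc9, a histone chaperone, at -2.51 and As3mt, an arsenic methyltransferase, at -2.59. Ccdc90b was at -2.37 and the antisense gene A930041C12Rik at -2.40.

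Stress and lamina genes differed in both directions. The early response and stress list had 2 of 8 tested genes 2-fold or more higher and 2 lower, where 20.1% and 11.5% of all genes were, with a log2 ratio of 0.22 for its sum. Jund, a transcription factor of the AP-1 family, was at 1.39 and the chaperone Hspa5 of the endoplasmic reticulum at -1.38. The list of lamina and chromatin genes had a sum at -0.31. Of its 13 tested genes, 2 were 2-fold or more higher and 1 lower, beside the same 20.1% and 11.5% of all genes. With so few genes tested, these counts set neither list apart from all genes. Syne2, a nesprin of the outer nuclear membrane, had the highest ratio of the lamina and chromatin list, at 2.26, and Lbr the lowest. Lbr, which was also 1 of the plasmid inserts, had 5 UMIs in 2 Malat1-rich rods and 113 UMIs in 23 zero-Malat1 rods (log2 ratio -2.31, -4.09 to -1.18). In tag 1 alone the counts were 5 and 5 UMIs and the log2 ratio was 0.97. Reads of the plasmid and of the gene cannot be told apart in counts. Gm42418 and AY036118, which overlap ribosomal RNA repeats and may hold its reads, were at -0.52 and -1.47.

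The 44 Malat1-rich non-rods consisted mainly of barcodes with bipolar transcripts, although the labels give the cell type of the library as rods. Bipolar cells carry the signal from photoreceptors to ganglion cells. In 35 of the 44 the bipolar list made up at least 1% of UMIs, and in 5 others the microglia list did, with 0 barcodes past both limits. The remaining 4 were shallow, with 507 to 890 UMIs and 21 to 54 Malat1 UMIs. A limit on a share gives a range and not a type, and these lists are not independent of how non-rods were chosen.

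Seen from the whole matrix, bipolar barcodes were mostly Malat1-rich and microglial ones less often so. Of 46 barcodes with at least 1% of UMIs from the bipolar list, 35 (76.1%, 61.2% to 87.4%) had 20 or more Malat1 UMIs, 5 had 1 to 19 and 6 had 0. Of 16 with the microglia list, 5 (31.2%, 11.0% to 58.7%) had 20 or more, 1 had fewer and 10 had 0. Of 42 with the Müller glia list, 4 (9.52%, 2.66% to 22.6%) had 20 or more, and 3 of them were non-rods. Depth differed in the same order, with median UMIs of 7667, 3625 and 997 in the bipolar, microglia and Müller glia barcodes. A rule on a count favours deep barcodes, so these percentages cannot be told apart from depth. Lists of amacrine, horizontal, ganglion, endothelial and astrocyte genes reached 1% in 0 barcodes.

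**Figure D5:**
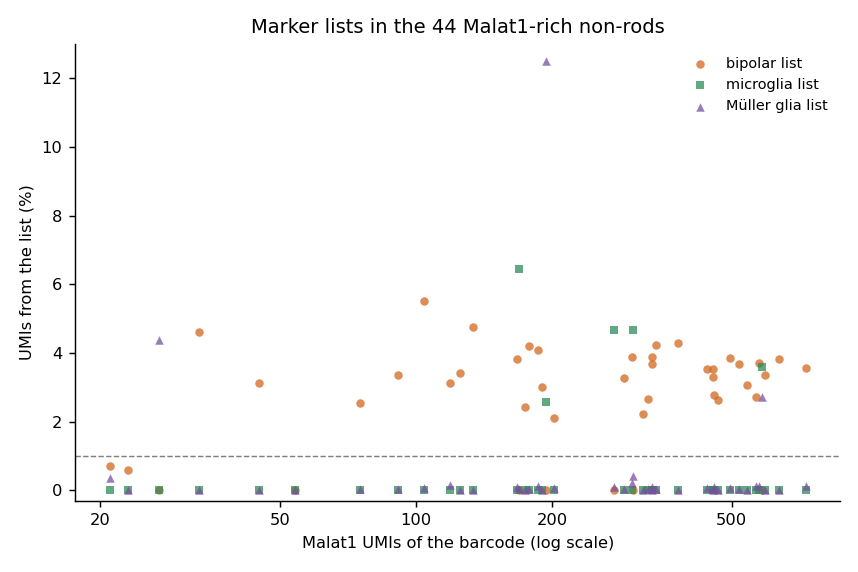
Percentage of UMIs from the bipolar (circles), microglia (squares) and Müller glia (triangles) lists against Malat1 UMIs on a log axis, for the 44 Malat1-rich non-rods. The dashed line marks 1%, which 35 barcodes pass for the bipolar list and 5 for the microglia list.

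Bipolar transcripts took a similar share in each of these barcodes. The list made up 2.11% to 5.53% of their UMIs with a median of 3.53%, their median depth was 9223 UMIs, and their Malat1 UMIs ran from 33 to 729 with a median of 326. Tag 2 marked 28 of the 35 and tag 3 marked 1. Trpm1, the cation channel of ON bipolar cells, had 928 UMIs in 34 of the 44 non-rods and 0 in zero-Malat1 rods, so it was at least 1180-fold higher with 3 UMIs as the floor over the group. Pcp2, a modulator of G proteins in rod bipolar cells, had 4126 UMIs in 36 barcodes against 9 in 3 (11514 against 6.58 CPM, log2 ratio 10.7). Pcp2 also stands in the list of other rod genes, where 27 of the 28 genes tested were 2-fold or more lower and Pcp2 was the exception. Of all genes tested in non-rods, 25.2% were lower. The rule chose these barcodes for a low share of 4 rod genes, so low rod transcripts are a description.

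The receptor and its pathway were present. Grm6, the glutamate receptor that senses photoreceptor release, had 160 UMIs in 28 barcodes, and the G protein subunit Gng13 had 3458 in 35. The transcription factor Isl1 had 217 UMIs, and Prkca, the classical rod bipolar kinase, had 433. Cabp5, a calcium-binding protein of bipolar cells, had 501. In zero-Malat1 rods Grm6, Isl1 and Cabp5 had 0 UMIs, Prkca 26 and Gng13 25.

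The 5 microglia barcodes held 169 to 585 Malat1 UMIs, a median of 4741 UMIs and 2.24% mitochondrial UMIs as a median (0.0235% to 12.3%). Of the 44 non-rods, 6 had 0 UMIs of the bipolar list. C1qa, a chain of complement C1q, had 409 UMIs in 5 barcodes and was at least 520-fold higher than in zero-Malat1 rods. The receptors Cx3cr1 and P2ry12 had 95 and 78 UMIs, with 0 in zero-Malat1 rods. Apoe stands in the Müller glia list and had 1013 UMIs in 5 barcodes, 50.3% of them in 1, and 2 of the microglia barcodes passed the limit for the Müller glia list too.

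Over all 44 non-rods, 2283 genes were tested against zero-Malat1 rods, of which 388 (17% of genes tested) were 2-fold or more higher and 576 (25.2%) lower, with a median log2 ratio of -0.24. Since the groups differ in cell type, these counts describe that difference and not Malat1 alone. The highest also included Ntng1 (532 UMIs against 0), a membrane-anchored netrin of axons, Qpct (450 against 0), Meg3 (374 against 0), B3galt2 (371 against 0), Ccdc136 (318 against 0), Nap1l5 (272 against 0), Lrtm1 (254 against 0) and the lincRNA C130073E24Rik (241 against 0).

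Rod transcripts were nearly absent from the non-rods, which the rule brings about in part. Nrl, Rp1 and Rbp3, the retinoid carrier between photoreceptors and pigment epithelium, had 0 UMIs in all 44 and 2525, 2325 and 2285 UMIs in zero-Malat1 rods, so they were at least 221-, 203- and 200-fold lower. A930003A15Rik, Cplx4, Reep6, Nxnl2 and Aipl1 had 0 UMIs too. Pde6g had 9 UMIs in 7 barcodes (25.1 against 14000 CPM, log2 ratio -9.04, -10.2 to -8.20). Vtn, in the pericyte list but seen in 414 of 550 zero-Malat1 rods, had 1 UMI (log2 ratio -8.88, -14.8 to -6.98), and Hbb-bs had 0.

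Nuclear RNAs differed between the kinds of members. The list of nuclear long noncoding RNAs summed to 5849 CPM in non-rods (5601 to 6105), against 4396 CPM in Malat1-rich rods and 758 CPM in zero-Malat1 rods. Its makeup was not that of the rods. Meg3 had 374 UMIs in 30 non-rods and 0 in Malat1-rich rods, and Xist had 747 UMIs in 20 of 44 (2085 against 0.731 CPM, log2 ratio 10.9, 8.99 to 16.8), where 1 UMI was seen in zero-Malat1 rods. Mir124a-1hg was at 137 CPM in non-rods and 1224 CPM in Malat1-rich rods. Kcnq1ot1 was alike in level, at 502 and 444 CPM, and was seen in 30 of 44 and 14 of 29 barcodes. Xist is made by female cells, and the labels do not give the sex behind a tag.

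The retained intron list was at 5891 CPM in non-rods (5642 to 6148), between the zero-Malat1 rods with 3086 CPM and the Malat1-rich rods with 10444 CPM. Of 18 genes tested, 12 were 2-fold or more higher and 0 lower, where 17% of all genes were higher. Clk4, a kinase of splicing factors, was at 3.38 and Ddx5, an RNA helicase, at -0.45.

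The mitochondrial share of the non-rods was not low. It was 18.8% of UMIs (18.7% to 19%) with a median of 17.8% per barcode and a range of 0.0235% to 43.2%, against 16.3% and a median of 15.8% in zero-Malat1 rods. The log2 ratio was 0.20 between the sums and -0.04 between the means over barcodes, so its direction depends on the weighting. Bipolar barcodes had a median of 20.4%. Within the non-rods, Spearman's rank correlation between the Malat1 share and the mitochondrial share was -0.338 over 44 barcodes. Mt1, a metallothionein that binds zinc and copper, was the most abundant gene of the stress list here, with 1278 UMIs in 35 of 44 non-rods against 10 UMIs in 3 zero-Malat1 rods (log2 ratio 8.86, 8.05 to 9.99).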

How the data were processed

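The deposited expression matrix holds UMI counts per gene and barcode, not normalized, for 31053 genes and 834 barcodes. The authors made it with Cell Ranger 6.1.2 on mm10 per the labels, while the matrix header gives 3.1.0. The deposited tag matrix holds counts for 645 barcodes, and a deposited table gives the tag call and the singlet probability, a fraction made by the authors, which was not used further. Group sums of UMIs were divided by all UMIs (CPM). Log2 ratios had 0.5 UMIs added to both sums. A gene entered a comparison, and is called tested, if equal shares would give it 20 UMIs or more in each group, and was counted as higher or lower past a limit of 2-fold, which is no statistical test. Intervals are exact Clopper-Pearson, Poisson or conditional binomial, at 95%. UMIs of 1 gene in 1 barcode may not be independent, so intervals can be too narrow. Thinning drew 1000 UMIs without replacement. Named genes were list members with at least 20 UMIs, plus the 12 highest and 12 lowest ratios seen in at least 5 barcodes of the higher group with at most 50% of UMIs in 1. Doublets were called with Scrublet in scanpy 1.11.5 (expected rate 6%) and kept in the main results. Gene spans, places and the Malat1 sequence come from GENCODE release 21 for mouse, which holds 99.9% of the gene identifiers. Scripts (numpy 2.4.6, scipy 1.17.1) were tested on simulated data. Lists overlap in part, among others in Guca1a, Pcp2, Otx2 and Tfap2b. Nrl, Nr2e3, Crx, Samd7, Samd11 and Esrrb stand both in the list of other rod genes and in that of photoreceptor transcription factors. The members and lists were chosen with earlier results of these data known. The alternatives tried are named in the closing section.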

Additional observations from a re-analysis of the deposited data

How the results depend on the processing

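There is 1 pooled library, so there was no replicate to leave out, and the depth of a barcode limits which transcripts are seen. No paired analysis was possible because the result comes from no test and the groups are barcodes of 1 library. Of 111 values under alternatives, 57 stayed within the spread used to judge them, 52 moved beyond it and 2 changed sign. A value within that spread can still differ much from the main one. The log2 ratio of median UMIs per barcode, Malat1-rich over zero-Malat1 rods, was 0.91. It was 0.18 within the stated quality limits, 0.31 among barcodes of 1000 to 10000 UMIs and 1.6 with a Malat1 minimum of 50 UMIs. All 3 were counted as within the spread. The cause of the moves was not tested, apart from the fewer genes or barcodes that an alternative leaves. The alternatives without the deepest rod and the 3 members near it, without the 2 rods with cone genes and with barcodes of 1000 to 10000 UMIs were chosen after seeing the data.

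In the values below, the mitochondrial share, nuclear long noncoding RNAs, retained intron transcripts and UMIs in long genes are log2 ratios in rods over zero-Malat1 rods, with main values of -1.08, 2.54, 1.76 and 1.23. The stated limits on genes and mitochondrial share left 40 members and gave -0.51, 2.12, 1.31 and 1.01. They gave 30 higher and 109 lower genes of 617 in rods, 95 higher and 325 lower of 949 in non-rods, and 0.10 for the mitochondrial share of non-rods. Tag 2 alone has 3 Malat1-rich rods, of 20 to 38 Malat1 UMIs. It gave -0.12, -0.34, 0.89 and 0.42, a difference of 63 genes at equal depth, and 0 higher and 8 lower genes of 50. Tag 1 alone gave -0.79 for the mitochondrial share and 1.34 for long genes.

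Without the deepest rod and the 3 members near it the 4 ratios were -0.94, 2.21, 1.61 and 1.06, with 215 higher and 154 lower genes of 1623. Barcodes of 1000 to 10000 UMIs gave -0.92, 2.15, 1.41 and 0.94, with 16 higher and 69 lower genes of 437 in rods, 107 higher and 364 lower of 1101 in non-rods, and 0.15 for the mitochondrial share of non-rods. With each gene counted once per barcode, long noncoding RNAs were at 0.80, retained intron transcripts at 0.51 and long genes at 0.75, with 0 higher genes of 501 in rods, and 0 higher and 300 lower of 631 in non-rods. Values from counting once depend on how many genes a barcode shows, which differs with its depth. A minimum of 50 expected UMIs gave 95 higher and 117 lower genes of 909 in rods and 105 higher and 277 lower of 982 in non-rods.

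Smaller moves were those of the mitochondrial share to -1.13 with a Malat1 minimum of 50 UMIs, -1.20 without called doublets, -1.16 as a mean over barcodes and -1.12 without the 2 rods with cone genes. Retained intron transcripts were at 1.86 without called doublets, and long genes at 1.30 without called doublets, 1.11 as a mean over barcodes and 1.26 without the 2 rods with cone genes. The mean over barcodes gave -0.04 for the mitochondrial share of non-rods, where the sums gave 0.20. Thinning to 2000 UMIs gave a difference of 342 genes, where 1000 UMIs gave 161. Among barcodes of 1000 to 10000 UMIs that difference was 97, and within the stated limits 117. A Malat1 minimum of 10 UMIs gave 86 members, the rod rule at 2% of UMIs gave 425 higher and 261 lower genes of 2133 in rods, and CPM without mitochondrial genes and Malat1 gave 450 and 307 of 2280.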
